A study of Homo sapiens with 40 samples.

Results

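The transcripts described here come from 32 genes of cholesterol and fatty acid synthesis, taken by symbol from the 28278 gene symbols of the count table. They fall into a sterol class of 23 genes and a fatty acid class of 9 genes. RNA was measured in HEK293T cells, a transformed human embryonic kidney line, in 5 lines and 2 treatments with 4 libraries each, 40 libraries in all. The first line carried a knockout of SLC25A12 (sgSLC25A12), SLC25A12 with the F137S change and a construct labelled dMTS-DELE1, and is called dMTS-DELE1 below. The next was the same knockout with SLC25A12-F137S alone, called F137S. The other lines were a line labelled as the knockout with SLC25A12-WT, the knockout with vector (KO) and wild-type cells with vector (WT). Every line was treated with 40 nM antimycin A, which blocks complex III of the respiratory chain, or with vehicle, both for 6 h. The labels call the 4 libraries of a group biological replicates. They do not say how the lines were derived, whether a line is a single clone, or whether the replicates were separate cultures. P-values therefore measure the spread between these libraries, which may be technical. The series asks how SLC25A12, a mitochondrial carrier of aspartate and glutamate, acts in mitochondrial stress signalling, in which DELE1 relays mitochondrial damage to the integrated stress response.

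Cells make cholesterol from acetyl-CoA through mevalonate and squalene, and fatty acids from acetyl-CoA through malonyl-CoA. Genes of both routes are classic targets of the SREBP transcription factors, encoded by SREBF1 and SREBF2, which SCAP escorts out of the endoplasmic reticulum when sterols are scarce and which INSIG1 holds back when sterols are plentiful. INSIG1 is itself an SREBP target, so its transcript is often read as a gauge of SREBP activity.

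The SLC25A12 transcript was the check of the labels. In vehicle it averaged 3716 ± 25.7 CPM (counts per 1e6, scaled between libraries as given under the processing) in dMTS-DELE1 cells, 1853 ± 18.3 in F137S cells, 38.9 ± 0.330 in the libraries with the SLC25A12-WT label, 3.08 ± 0.231 in KO cells and 38.7 ± 1.82 in WT cells (SD, n = 4 each). The libraries with the SLC25A12-WT label thus held the WT level of the transcript, and 0 of 16739 genes differed between them and WT cells in vehicle. The label may be wrong, or the added SLC25A12 may lie near the WT level, and these cannot be told apart here. They are called by their label throughout. DELE1 averaged 5344 ± 84.7 CPM in dMTS-DELE1 cells and 45.9 ± 2.16 CPM in F137S cells, so dMTS-DELE1 cells had both more DELE1 and more SLC25A12 transcript than F137S cells, and their parts cannot be told apart. Each library held between 30.7 and 32 times 1e6 counts. Summed over a list, embryonic kidney markers held 7.04 to 14.7 CPM per library and neuronal filament markers, known in HEK293 lines, 153 to 368 CPM. Of the embryonic kidney markers, EYA1 held 4.07 to 11.2 CPM and PAX2 1.81 to 3.91 CPM. LHX1 held at most 0.975 CPM, and PAX8 was at 0 in 27 libraries. Fibroblast markers summed to more than the embryonic kidney markers, 15 to 23.6 CPM, mostly from COL1A1 (14.8 to 20.9 CPM). Mature kidney markers summed to 0.502 to 1.98 CPM, with UMOD at 0 in all 40 libraries, hepatocyte markers to at most 1.11 CPM and adipocyte markers to at most 3.47 CPM. Counts of the 32 genes in a single library ran from 388 for TM7SF2 to 39141 for FASN.

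RefSeq promoters (GRCh38.p14) were at hand for 28 of the 32 genes and were searched on both strands in windows from 250 bases before to 50 bases after the start. The table gives some genes several starts, and the 28 genes have 25 windows in the sterol class and 13 in the fatty acid class, with up to 3 for a gene. A gene is counted as holding a motif if any of its windows does. The NF-Y box CCAAT, whose factor is known to act together with SREBP, stood in a window of 16 of 20 sterol class genes (80%) and 5 of 8 fatty acid class genes (62.5%), against 39.7% of all 27305 genes. Counted by window it stood in 18 of 25 (72%) and 7 of 13 (53.8%), against 34.6% of all. The Sp1 box GGGCGG stood in a window of 18 of 20 sterol class genes (90%) and 8 of 8 fatty acid class genes (100%), against 48.3% of all, and in 22 of 25 (88%) and 11 of 13 windows (84.6%), against 45% of all. The strict SREBP element TCACNCCAC stood in a window of 1 of 20 sterol class genes, SREBF2, of 0 of 8 fatty acid class genes and of 1.39% of all. The ATF4 element TGATGNAA stood in 0 of 20 and 0 of 8 genes, against 4.46% of all. The shares of all genes cover every gene with a promoter at hand, whether expressed in these cells or not. They were not matched to the expression or base content of the 32 genes. These are matches of letters and not sites of binding. The 250 bases before the start follow for SREBF2, which holds the SREBP element, and for 4 genes with large changes described later. Each is read 5′ to 3′ on the strand of the gene, with NF-Y boxes (CCAAT, or ATTGG where it lies on the other strand) and the SREBP element in capitals. The windows are chr22:41832855-41833104 (+) for SREBF2, chr7:155297628-155297877 (+) for INSIG1, chr11:71448394-71448643 (−) for DHCR7, chr11:65111622-65111871 (+) for TM7SF2 and chr10:100346983-100347232 (+) for SCD. DHCR7 has a second window, whose 250 bases before the start (chr11:71449044-71449293) hold no NF-Y box, and the other 4 genes have 1 window each. SREBF1 and ELOVL6, which also had large changes and are not shown, have 1 window each without an NF-Y box.
SREBF2: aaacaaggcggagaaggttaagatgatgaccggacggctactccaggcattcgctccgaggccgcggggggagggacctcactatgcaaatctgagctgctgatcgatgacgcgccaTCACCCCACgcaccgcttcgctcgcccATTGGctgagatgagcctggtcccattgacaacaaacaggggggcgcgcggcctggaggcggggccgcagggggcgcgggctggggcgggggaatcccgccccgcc
INSIG1: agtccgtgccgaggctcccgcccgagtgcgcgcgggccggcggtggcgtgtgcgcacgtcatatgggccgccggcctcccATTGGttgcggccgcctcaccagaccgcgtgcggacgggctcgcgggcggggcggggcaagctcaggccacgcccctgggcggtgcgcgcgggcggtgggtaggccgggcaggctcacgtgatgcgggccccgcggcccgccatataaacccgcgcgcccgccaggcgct
DHCR7: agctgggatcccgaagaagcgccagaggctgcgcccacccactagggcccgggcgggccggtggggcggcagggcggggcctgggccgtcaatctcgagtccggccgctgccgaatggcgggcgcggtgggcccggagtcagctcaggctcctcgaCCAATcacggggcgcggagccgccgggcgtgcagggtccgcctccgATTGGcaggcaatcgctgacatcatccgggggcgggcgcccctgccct
TM7SF2: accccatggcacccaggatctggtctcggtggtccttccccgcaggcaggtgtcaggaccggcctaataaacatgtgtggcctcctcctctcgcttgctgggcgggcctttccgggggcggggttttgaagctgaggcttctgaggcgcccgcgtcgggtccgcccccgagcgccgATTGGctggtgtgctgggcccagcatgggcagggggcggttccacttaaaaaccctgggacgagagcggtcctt
SCD: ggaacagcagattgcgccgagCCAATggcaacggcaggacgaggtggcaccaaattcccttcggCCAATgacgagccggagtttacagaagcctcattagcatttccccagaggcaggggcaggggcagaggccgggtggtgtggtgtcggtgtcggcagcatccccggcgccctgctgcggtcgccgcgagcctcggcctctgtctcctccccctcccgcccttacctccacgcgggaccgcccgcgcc

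In dMTS-DELE1 cells most genes of both classes had less transcript than in F137S cells, with and without antimycin A. In vehicle 25 of the 32 genes were lower and 0 higher, 18 of 23 in the sterol class and 7 of 9 in the fatty acid class. A call is an adjusted p < 0.05 in edgeR's quasi-likelihood test with Benjamini-Hochberg adjustment over 16739 genes, and 24.1% of all tested genes were called lower in this comparison (41.8% in either direction). Such shares over all tested genes, here and below, were not matched to the expression level of the 32 genes. The median log2 fold change was -0.26 in the sterol class and -0.295 in the fatty acid class, against -0.02 over all tested genes. For 22 of the 25 genes (22 of 32 members) the libraries of the 2 lines did not overlap, and 18.5% of all tested genes were called lower without overlap. In bulk RNA, fewer cells expressing a gene and less RNA per cell cannot be told apart.

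The regulators of the pathway did not move alike. INSIG1, the SREBP retention factor, had 190, 182, 176 and 166 CPM in dMTS-DELE1 cells in vehicle, against 236, 237, 238 and 249 CPM in F137S cells. All 4 dMTS-DELE1 libraries lay below all 4 F137S libraries, and the log2 fold change was -0.43 ± 0.03 (SE, adjusted p = 8.2e-23), a fall of 25.6% in CPM. SREBF2, the gene of the sterol-directed SREBP, had 165, 172, 154 and 165 CPM in dMTS-DELE1 cells and 167, 170, 167 and 173 CPM in F137S cells. These groups overlapped, and the log2 fold change of -0.05 ± 0.03 did not pass (adjusted p = 0.24). SREBF1, the gene of the lipogenic SREBP, had 27.3, 30.7, 25.2 and 26.9 CPM in dMTS-DELE1 cells and 26.0, 27.2, 27.7 and 30.1 CPM in F137S cells, again overlapping (log2 fold change -0.01 ± 0.05, adjusted p = 0.87). SCAP, the SREBP escort, had 167, 181, 158 and 172 CPM against 186, 185, 178 and 191 CPM in F137S cells, and was lower by a small margin with overlapping libraries (-0.13 ± 0.03, adjusted p = 0.0006).

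Of the 7 genes from acetyl-CoA to farnesyl diphosphate, 6 were lower in dMTS-DELE1 cells in vehicle. Their log2 fold changes were -0.28 for the thiolase ACAT2, -0.26 for the HMG-CoA synthase HMGCS1, -0.28 for the mevalonate kinase MVK, -0.22 for the decarboxylase MVD, -0.32 for the isomerase IDI1 and -0.26 for the farnesyl diphosphate synthase FDPS. The phosphomevalonate kinase PMVK did not pass (-0.03, adjusted p = 0.68). Of the genes that make and cyclise squalene, FDFT1 (squalene synthase, -0.30) and SQLE (squalene epoxidase, -0.32) were lower, and LSS (lanosterol synthase) had a wide error (-0.06 ± 0.20). In the steps from lanosterol to cholesterol, 7 of 9 genes were lower, from -0.12 for the sterol reductase and lamin B receptor LBR to -0.39 for DHCR7, which reduces 7-dehydrocholesterol in the last step. DHCR7 had 96.2, 99.4, 94.1 and 93.3 CPM in dMTS-DELE1 cells, against 127, 123, 127 and 124 CPM in F137S cells (-0.39 ± 0.03, adjusted p = 4.7e-21). The others of these 7 were TM7SF2 (-0.32), NSDHL (-0.31), EBP (-0.21), MSMO1 (-0.21) and CYP51A1 (-0.20). SC5D, the lathosterol oxidase that acts just before DHCR7, stayed within the spread (-0.02 ± 0.02, adjusted p = 0.45), as did HSD17B7 (0.05, adjusted p = 0.44). STARD4, a sterol transfer protein, had 40.8, 41.2, 46.4 and 42.7 CPM in dMTS-DELE1 cells, against 54.0, 53.7, 56.1 and 56.7 CPM in F137S cells (-0.37 ± 0.05, adjusted p = 1.2e-09), without overlap.

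In the fatty acid class, SCD, the stearoyl-CoA desaturase, had 602, 620, 610 and 610 CPM in dMTS-DELE1 cells in vehicle, against 797, 813, 807 and 804 CPM in F137S cells. The groups were far apart for their spread (log2 fold change -0.40 ± 0.02, adjusted p = 2.3e-33). ELOVL6, the elongase of C16 fatty acids, had 43.8, 40.5, 44.4 and 42.8 CPM in dMTS-DELE1 cells and 53.4, 52.1, 56.4 and 55.4 CPM in F137S cells (-0.34 ± 0.04, adjusted p = 3.3e-11). FASN, the fatty acid synthase, had 884, 907, 806 and 892 CPM in dMTS-DELE1 cells and 1070, 1113, 1046 and 1111 CPM in F137S cells (-0.31 ± 0.04, adjusted p = 2.3e-08). None of these 3 genes had overlapping libraries. The desaturase FADS2 (-0.31), the ATP-citrate lyase ACLY (-0.295) and the acetyl-CoA synthetase ACSS2 (-0.19) were also lower. FADS1, the other desaturase of polyunsaturated fatty acids, passed narrowly (-0.07 ± 0.03, adjusted p = 0.041) and lost the call without any 1 of the 4 F137S libraries or without dMTS-DELE1 replicate 1 or 4, with log2 fold changes there of -0.06 to -0.03. The acetyl-CoA carboxylase ACACA had a wide error (0.16 ± 0.25).

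**Figure D1:**
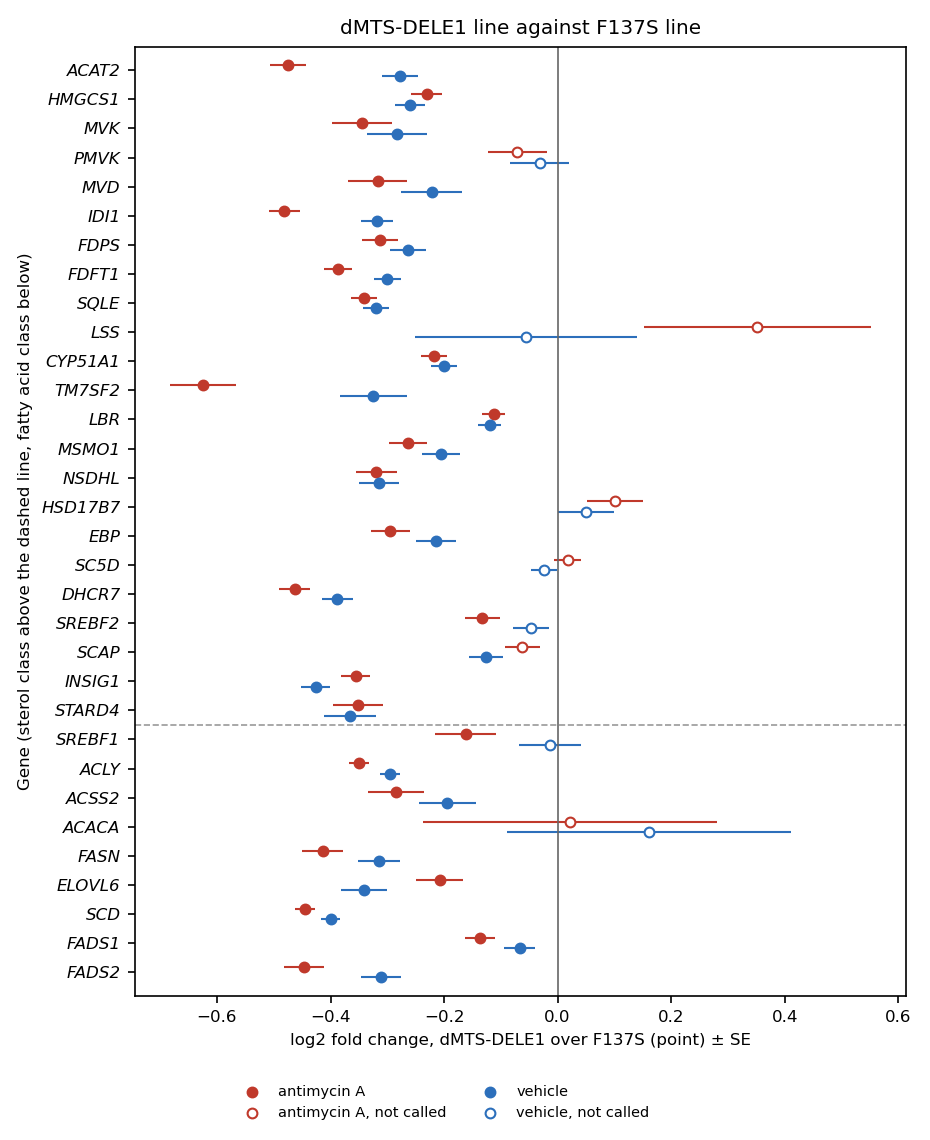
Log2 fold change of each of the 32 genes in dMTS-DELE1 cells over F137S cells (x axis, points with SE bars), in antimycin A (red, above) and vehicle (blue, below), with filled points for adjusted p < 0.05. Nearly all points of both classes lie left of 0, and TM7SF2 in antimycin A lies farthest left at -0.62.

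Under antimycin A the same comparison, on other libraries, gave 26 of 32 genes lower and 0 higher in dMTS-DELE1 cells, 18 in the sterol class and 8 in the fatty acid class, where 28.8% of all tested genes were lower (54.3% in either direction). The median log2 fold change was -0.31 in the sterol class and -0.28 in the fatty acid class, against -0.02 over all tested genes. In both treatments 24 of the 32 genes (75%) were lower, against 19.2% of all tested genes. The 5 genes called in neither treatment were PMVK, LSS, HSD17B7, SC5D and ACACA.

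TM7SF2, a sterol reductase, had 19.9, 18.7, 19.5 and 19.9 CPM in dMTS-DELE1 cells under antimycin A, against 29.6, 28.5, 30.8 and 31.3 CPM in F137S cells (-0.62 ± 0.06, adjusted p = 1.4e-15). SCD had 566, 561, 577 and 571 CPM against 780, 760, 785 and 771 CPM (-0.45 ± 0.02, adjusted p = 2.3e-36). Both genes had no overlap between the lines, and for TM7SF2 the 231 tested genes within 5 Mb had a median log2 fold change of -0.16. IDI1 had 142, 140, 149 and 134 CPM in dMTS-DELE1 cells and 205, 201, 184 and 197 CPM in F137S cells (-0.48 ± 0.03, adjusted p = 1.4e-25). ACAT2 had 69.2, 70.3, 72.9 and 69.5 CPM in dMTS-DELE1 cells and 98.9, 96.9, 95.9 and 100.1 CPM in F137S cells (-0.47 ± 0.03, adjusted p = 1.7e-22). FADS2 had 45.5, 49.3, 45.5 and 45.6 CPM against 66.3, 60.6, 65.9 and 60.6 CPM in F137S cells (-0.45 ± 0.04, adjusted p = 1.3e-18). None of these 3 had overlapping libraries either. FASN had 901, 873, 845 and 877 CPM in dMTS-DELE1 cells and 1156, 1092, 1250 and 1161 CPM in F137S cells (-0.41 ± 0.04, adjusted p = 2.95e-11), again without overlap. Over the 32 genes the medians of tested genes within 5 Mb ran from -0.18 around FASN to 0.13 around STARD4. In vehicle they ran from -0.11 around FASN to 0.12 around HMGCS1. Under antimycin A the median around FADS1 and FADS2 was -0.13, close to FADS1 itself (-0.14). The part of such shifts in the results of the genes was not tested.

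Of the regulators under antimycin A, INSIG1 had 152, 155, 152 and 147 CPM in dMTS-DELE1 cells and 195, 193, 191 and 197 CPM in F137S cells, and all dMTS-DELE1 libraries lay below all F137S libraries (-0.36 ± 0.03, adjusted p = 4.25e-19). SREBF2 had 180, 168, 172 and 174 CPM in dMTS-DELE1 cells and 190, 177, 203 and 191 CPM in F137S cells. It was called lower although the libraries overlapped (-0.13 ± 0.03, adjusted p = 0.00026). SREBF1 had 27.7, 26.8, 28.2 and 27.8 CPM in dMTS-DELE1 cells and 30.8, 27.3, 33.7 and 31.99 CPM in F137S cells, also called with overlap (-0.16 ± 0.05, adjusted p = 0.0081). Without F137S replicate 3 this call was lost, at a log2 fold change of -0.12. SCAP had 187, 179, 178 and 181 CPM in dMTS-DELE1 cells and 184, 186, 198 and 189 CPM in F137S cells, which overlapped, and it did not pass (-0.06 ± 0.03, adjusted p = 0.081).

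Whether the gap between the lines differed between treatments was tested as a difference of responses, which was called for 11.9% of all tested genes (3.7% lower and 8.24% higher in dMTS-DELE1 cells). In the sterol class 3 genes passed, all with a wider gap under antimycin A. The difference was -0.30 ± 0.08 for TM7SF2 (adjusted p = 0.0086), -0.20 ± 0.04 for ACAT2 (adjusted p = 0.0011) and -0.16 ± 0.04 for IDI1 (adjusted p = 0.0023). In the fatty acid class edgeR called 0 of 9 genes, 3 had an unadjusted p under 0.05, and DESeq2 called 1. Without F137S antimycin replicate 2 the counts were 6 sterol class genes and 4 fatty acid class genes. The fatty acid count was 2 without F137S vehicle or antimycin replicate 4 or dMTS-DELE1 antimycin replicate 2 or 3, and 1 without F137S vehicle replicate 2, F137S antimycin replicate 1, dMTS-DELE1 vehicle replicate 1 or dMTS-DELE1 antimycin replicate 4.

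In KO cells the genes of the 2 classes split in both directions relative to WT cells. In vehicle 9 of 23 sterol class genes were higher and 7 lower, and 3 of 9 fatty acid class genes were higher and 4 lower. These shares stand beside 22.7% of all tested genes called higher and 25.6% called lower (48.3% in either direction). The median log2 fold change was 0.05 in the sterol class and -0.12 in the fatty acid class, against -0.01 over all tested genes.

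INSIG1 had the largest change of the 32 genes in vehicle. It had 246, 238, 233 and 244 CPM in KO cells, against 386, 415, 411 and 410 CPM in WT cells, a log2 fold change of -0.755 ± 0.03 (adjusted p = 2.7e-37), or 40.7% less. SREBF1 had 28.4, 31.2, 32.3 and 27.5 CPM in KO cells and 43.5, 43.9, 40.5 and 41.7 CPM in WT cells (-0.51 ± 0.05, adjusted p = 3.8e-13). Neither gene had overlapping libraries. Around SREBF1 on chromosome 17 (RefSeq positions), the 84 tested genes within 5 Mb had a median log2 fold change of -0.21 and 52 of them were lower in KO cells, whereas around INSIG1 on chromosome 7 the median of 44 genes was -0.01. The shift was not alike along chromosome 17, where the neighbours had medians of -0.13 around ACACA, -0.10 around ACLY and 0.04 around FASN. The part of the shift around SREBF1 in its own result was not tested. The other regulators were higher in KO cells. SREBF2 had 165, 164, 175 and 170 CPM in KO cells and 149, 155, 151 and 148 CPM in WT cells (0.16 ± 0.03, adjusted p = 2.7e-05). SCAP had 181, 193, 194 and 178 CPM in KO cells and 169, 169, 170 and 174 CPM in WT cells (0.13 ± 0.03, adjusted p = 0.00031). The libraries of the 2 lines did not overlap for either gene.

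Genes that make and modify fatty acids moved apart from each other. SCD had 810, 789, 825 and 821 CPM in KO cells, against 1064, 1111, 1112 and 1099 CPM in WT cells (-0.43 ± 0.02, adjusted p = 3.2e-36). ELOVL6 had 56.3, 55.5, 56.5 and 52.6 CPM in KO cells and 71.2, 73.4, 72.9 and 69.6 CPM in WT cells (-0.38 ± 0.04, adjusted p = 1.1e-13), and ACLY was lower as well (-0.35 ± 0.02, adjusted p = 1.6e-30). FADS2 had 66.4, 68.8, 68.6 and 69.7 CPM in KO cells and 57.1, 57.9, 54.6 and 57.0 CPM in WT cells, and was higher (0.27 ± 0.04, adjusted p = 3.4e-10). FADS1 (0.16) and FASN (0.11) were higher too, the FASN call being lost without KO replicate 3 (0.09). Around ELOVL6 the 45 neighbouring genes had a median of 0.17, opposite in sign to ELOVL6 itself.

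Among the sterol enzymes the 2 largest rises were in genes of the steps from lanosterol to cholesterol. TM7SF2 had 21.3, 22.9, 21.3 and 22.3 CPM in KO cells, against 14.2, 17.2, 14.5 and 12.9 CPM in WT cells (0.58 ± 0.06, adjusted p = 1.9e-13). SC5D had 225, 222, 219 and 227 CPM in KO cells and 154, 157, 164 and 149 CPM in WT cells (0.52 ± 0.02, adjusted p = 7.2e-32). Neither gene had overlapping libraries, and the tested genes within 5 Mb of them on chromosome 11 had medians of 0.01 and -0.0024. ACAT2 (0.20), MSMO1 (0.17), IDI1 (0.14), LBR (0.10) and SQLE (0.05) were also higher. The tested genes within 5 Mb had medians of 0.16 around ACAT2, 0.18 around MSMO1 and 0.09 around LBR, close to the values of the genes themselves. The SQLE call was lost without WT replicate 1, 3 or 4 or KO replicate 1, 3 or 4 (0.04 to 0.06). NSDHL (-0.18), DHCR7 (-0.15), HMGCS1 (-0.13), FDPS (-0.12), HSD17B7 (-0.12) and EBP (-0.10) were lower, the HSD17B7 call being lost without WT replicate 1 or KO replicate 3 or 4 (-0.11 to -0.09).

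**Figure D2:**
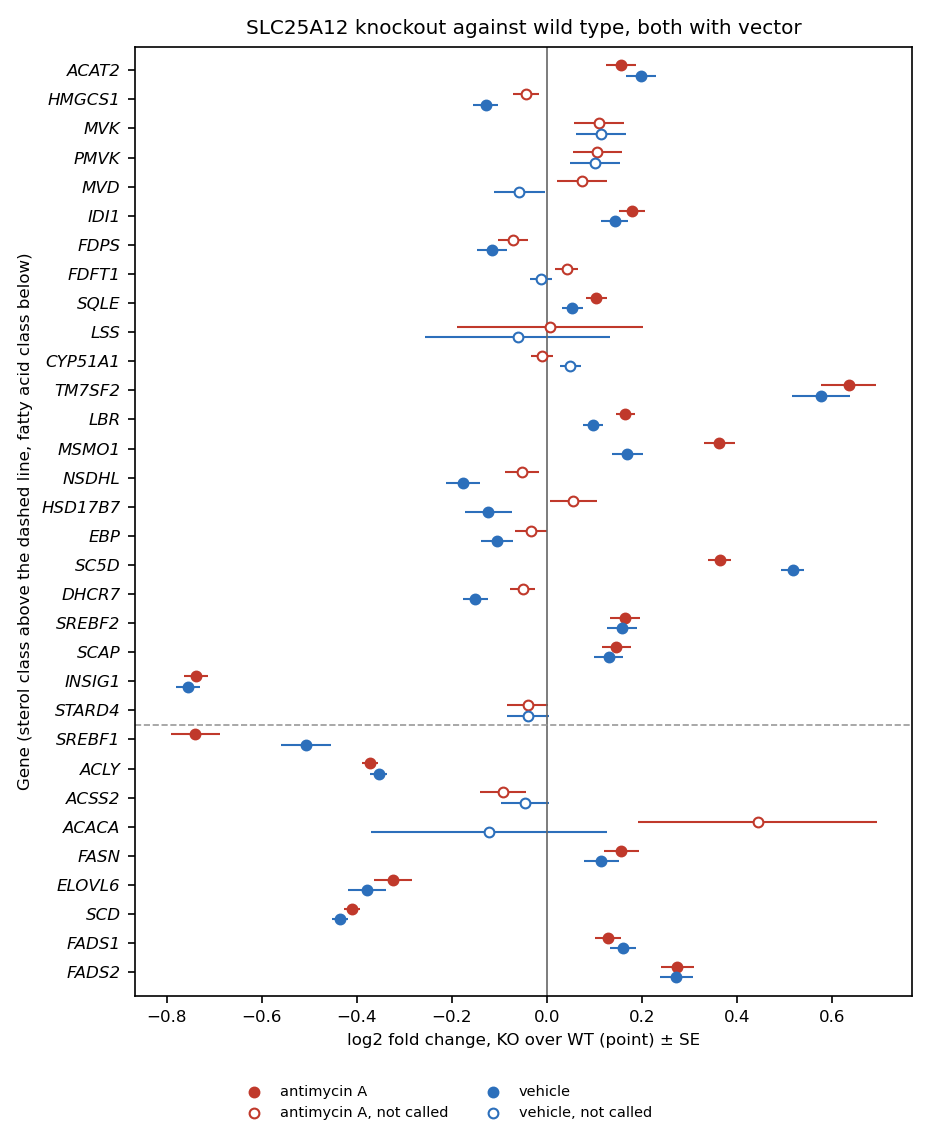
Log2 fold change of each of the 32 genes in KO cells over WT cells (x axis, points with SE bars), in antimycin A (red, above) and vehicle (blue, below), with filled points for adjusted p < 0.05. INSIG1 and SREBF1 lie farthest left and TM7SF2 and SC5D among the farthest right in both treatments.

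Under antimycin A, 9 sterol class genes were higher and 1 lower in KO cells, and 3 fatty acid class genes were higher and 4 lower, against 23.5% and 24.5% of all tested genes (48% in either direction). In both treatments 12 of the 32 genes (37.5%) were higher, against 17.9% of all tested genes, and 5 (15.6%) were lower, against 19.6%. The 5 were INSIG1, SREBF1, ACLY, ELOVL6 and SCD, so that INSIG1 was the only sterol class gene lower in both. INSIG1 had 193, 195, 190 and 187 CPM in KO cells and 308, 319, 321 and 328 CPM in WT cells (-0.74 ± 0.03, adjusted p = 2.3e-36). SREBF1 had 30.2, 30.5, 26.9 and 31.8 CPM in KO cells and 49.8, 50.1, 51.3 and 48.0 CPM in WT cells (-0.74 ± 0.05, adjusted p = 2.0e-20). For both genes every KO library lay below every WT library. SREBF2 had 188, 193, 190 and 189 CPM in KO cells and 170, 179, 170 and 158 CPM in WT cells (0.16 ± 0.03, adjusted p = 1.19e-05). SCAP had 192, 192, 191 and 186 CPM in KO cells and 180, 176, 167 and 165 CPM in WT cells (0.15 ± 0.03, adjusted p = 6.18e-05). These 2 regulators were higher in every KO library than in any WT library.

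Of the enzymes, TM7SF2 again had the largest rise in the sterol class, followed by SC5D and MSMO1 at nearly the same value. MSMO1 was 0.36 higher, and the 21 tested genes within 5 Mb of it had a median of 0.21. SCD and ACLY had the 2 largest falls in the fatty acid class. TM7SF2 had 29.9, 33.5, 29.2 and 30.1 CPM in KO cells and 20.3, 20.3, 18.7 and 19.8 CPM in WT cells (0.63 ± 0.06, adjusted p = 6.54e-16). SC5D had 223, 218, 215 and 221 CPM in KO cells and 173, 170, 169.6 and 169 CPM in WT cells (0.36 ± 0.02, adjusted p = 4.05e-23). Both stood above WT cells in every KO library. SCD had 792, 800.3, 787 and 785 CPM in KO cells and 1025, 1048, 1046 and 1084 CPM in WT cells (-0.41 ± 0.02, adjusted p = 1.5e-34). ACLY had 529, 535, 536 and 518 CPM in KO cells and 678, 685, 697 and 679 CPM in WT cells (-0.37 ± 0.02, adjusted p = 9.26e-32). For these 2 genes of fatty acid synthesis every KO library lay below every WT library.

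The difference of the antimycin response between KO and WT cells was called for 1.57% of all tested genes (0.836% higher in KO cells and 0.729% lower) and for 2 of the 32 genes. MSMO1, the sterol methyl oxidase, differed by 0.19 ± 0.05 (adjusted p = 0.011). Its response was 0.35 in KO cells and 0.16 in WT cells, and the call was lost without KO vehicle replicate 4, KO antimycin replicate 2 or WT antimycin replicate 1 (0.17 in each). SC5D differed by -0.15 ± 0.03 (adjusted p = 0.0032), with a response of -0.03 in KO cells, which did not pass, and 0.13 in WT cells. SREBF1 did not pass (-0.23 ± 0.07, adjusted p = 0.10). In the fatty acid class edgeR called 0 of 9 genes, 1 had an unadjusted p under 0.05 and DESeq2 called 1.

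The libraries with the SLC25A12-WT label stood with WT cells for these genes. Against KO cells in vehicle, 7 sterol class genes were higher and 9 lower, and 4 fatty acid class genes were higher and 3 lower (47.8% of all tested genes called). INSIG1 was 0.79 ± 0.03 higher on the log2 scale, SREBF1 0.54 ± 0.05 and SCD 0.45 ± 0.02, while TM7SF2 was lower by -0.58 ± 0.06 and SC5D by -0.51 ± 0.02. This comparison and that of KO with WT cells share the KO libraries. Against WT cells, edgeR and DESeq2 each called 0 of the 32 genes in either treatment (0% of all tested genes in vehicle and 0.00597% under antimycin A). At an unadjusted p under 0.05 there were 2 sterol class genes in vehicle, and 3 sterol class and 1 fatty acid class gene under antimycin A. Without LSS and ACACA the log2 fold changes against WT cells in vehicle ran from -0.05 to 0.12. Under antimycin A, 4 sterol class genes were higher and 10 lower than in KO cells, and 4 fatty acid class genes were higher and 4 lower (48.2% of all tested genes called).

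No gene of the 32 was called between KO cells and F137S cells, whose altered carrier was far above the WT transcript level. Both edgeR and DESeq2 called 0 of 32 genes in vehicle, where 0.0836% of all tested genes were called, and 0 of 32 under antimycin A, where 0.114% were. At an unadjusted p under 0.05 there were 2 genes in vehicle and 5 under antimycin A. Without LSS and ACACA the log2 fold changes ran from -0.11 to 0.03 in vehicle and from -0.10 to 0.05 under antimycin A. INSIG1, for example, had 236, 237, 238 and 249 CPM in F137S cells and 246, 238, 233 and 244 CPM in KO cells in vehicle, which overlap.

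**Figure D3:**
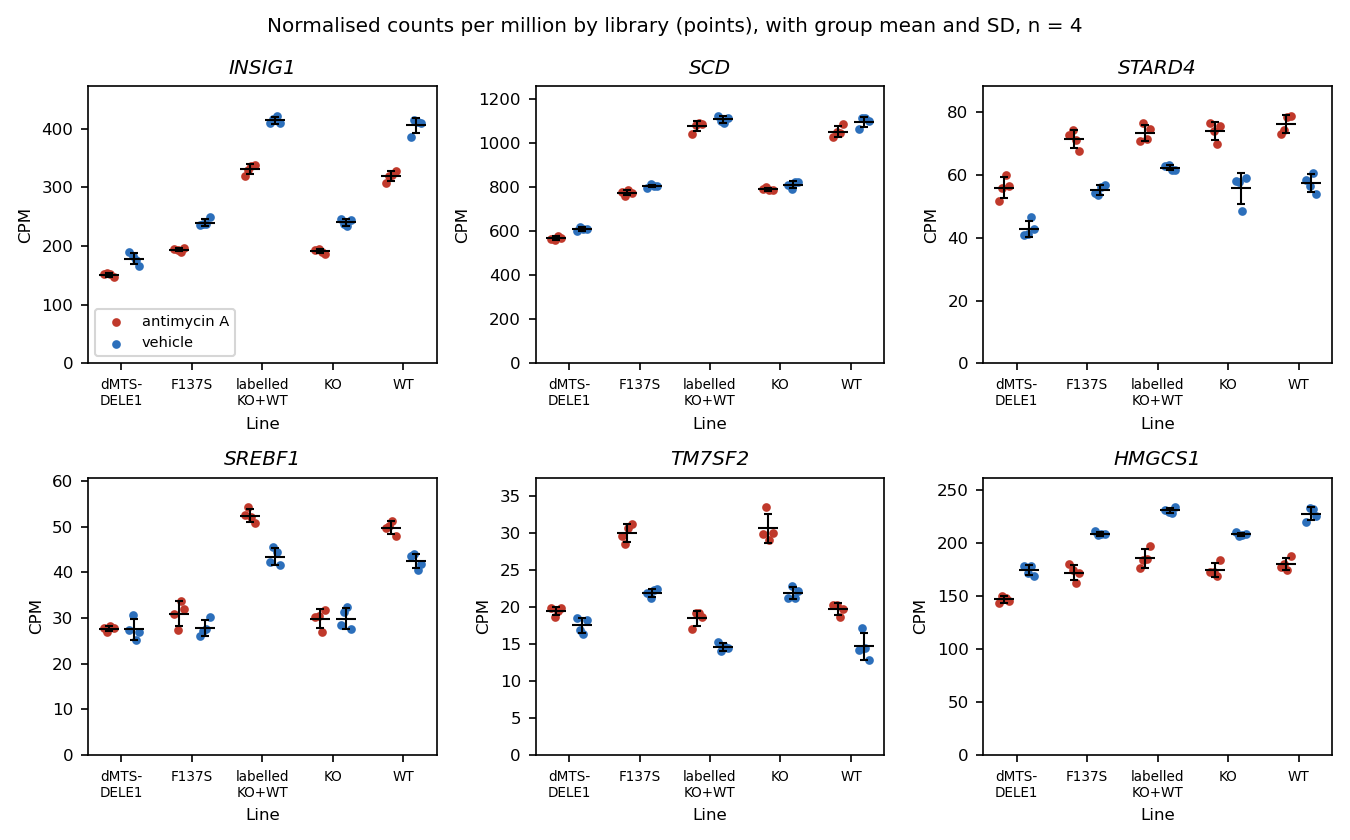
CPM of INSIG1, SCD, STARD4, SREBF1, TM7SF2 and HMGCS1 (y axes, from 0) in each library (points) of the 5 lines, antimycin A (red) left of vehicle (blue), with group means and SD (black, n = 4). The libraries with the SLC25A12-WT label sit with WT cells and F137S cells sit with KO cells. Within each treatment dMTS-DELE1 cells are the lowest for INSIG1, SCD, STARD4 and HMGCS1.

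Antimycin A moved single genes of both classes up or down. In WT cells 9 sterol class genes rose and 7 fell, and 3 fatty acid class genes rose and 3 fell, against 25.5% and 26.4% of all tested genes (51.9% in either direction). The class medians were 0.01 in the sterol class and -0.02 in the fatty acid class, against 0.01 over all tested genes. FADS2 and SCD are 2 of the 3 falls, and the FADS2 call was lost in 7 of 8 fits that left out 1 library (-0.09 to -0.07) and the SCD call in 2 of 8 (-0.04 to -0.03). Without WT antimycin replicate 1 both were lost, and 1 fatty acid class gene fell. The mean log2 CPM of the sterol class differed between antimycin A and vehicle by 0.01 ± 0.01 in dMTS-DELE1 cells, 0.04 ± 0.01 in F137S cells, 0.03 ± 0.01 in the libraries with the SLC25A12-WT label, 0.06 ± 0.01 in KO cells and 0.02 ± 0.01 in WT cells (SE, n = 4 each). For the fatty acid class the differences were -0.07 ± 0.01 in dMTS-DELE1 cells, -0.01 ± 0.06 in F137S cells, -0.01 ± 0.04 in the libraries with the SLC25A12-WT label, 0.02 ± 0.02 in KO cells and -0.02 ± 0.02 in WT cells. The sterol class in KO cells and the fatty acid class in dMTS-DELE1 cells thus moved farthest for their spread. The fatty acid mean in dMTS-DELE1 cells includes ACACA, which had the lowest response of the 9 genes there (-0.48) and was not called. Without ACACA the lowest response was -0.24, and the median of the 9 genes was -0.07. The share of all tested genes called was 34.9% in dMTS-DELE1 cells, 51.2% in F137S cells, 52.3% in the libraries with the SLC25A12-WT label and 51% in KO cells. Of the 32 genes, 21 were called in dMTS-DELE1 cells, 18 in F137S cells, 20 in the libraries with the SLC25A12-WT label, 17 in KO cells and 22 in WT cells. Leaving out 1 library gave 16 to 20 in dMTS-DELE1 cells, where the sterol class count was 11 to 15 (15 with all libraries). The SCD call in the libraries with the SLC25A12-WT label was lost in 8 of 8 such fits (-0.04 to -0.01, adjusted p up to 0.639).

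In all 5 lines 9 genes rose, which is 28.1% of the 32 against 11.3% of all tested genes, and 5 fell, which is 15.6% against 13.1%. The 9 were MVD, IDI1, TM7SF2, MSMO1, DHCR7, SREBF2, STARD4, ACSS2 and FADS1. In dMTS-DELE1 cells the calls of IDI1, TM7SF2, SREBF2 and FADS1 were lost in 2, 5, 6 and 4 of the 8 fits that left out 1 library. Without dMTS-DELE1 antimycin replicate 3 all 4 were lost together, and 5 of the 32 genes (15.6%) rose in all 5 lines. Leaving out each other dMTS-DELE1 library gave 6 to 8, and the libraries of the other lines 9. STARD4 had 73.0, 74.1, 78.2 and 78.7 CPM in WT cells under antimycin A, against 58.4, 56.3, 60.4 and 53.8 CPM in vehicle (0.41 ± 0.04, adjusted p = 5.5e-12), and its response ran from 0.24 to 0.41 over the lines. ACSS2, which makes acetyl-CoA from acetate, had 32.1, 34.2, 33.5 and 34.6 CPM under antimycin A and 24.9, 26.2, 24.6 and 26.7 CPM in vehicle (0.39 ± 0.05, adjusted p = 9.9e-11), with 0.33 to 0.42 over the lines. Neither gene had overlapping libraries in WT cells. TM7SF2 had 20.3, 20.3, 18.7 and 19.8 CPM under antimycin A and 14.2, 17.2, 14.5 and 12.9 CPM in vehicle in WT cells (0.43 ± 0.06, adjusted p = 6.3e-09), also without overlap.

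The 5 genes that fell in all lines were HMGCS1, LBR, NSDHL, INSIG1 and ELOVL6. HMGCS1, at the entry to the mevalonate pathway, had 177, 180, 175 and 187 CPM in WT cells under antimycin A, against 219, 232, 232 and 225 CPM in vehicle (-0.34 ± 0.03, adjusted p = 2.1e-18). INSIG1 fell by about the same amount (-0.35 ± 0.02, adjusted p = 9.4e-20). ELOVL6 had 51.7, 56.4, 54.5 and 57.5 CPM under antimycin A and 71.2, 73.4, 72.9 and 69.6 CPM in vehicle (-0.38 ± 0.04, adjusted p = 5.9e-14). None of the 3 had overlapping libraries. Over the 5 lines the response ran from -0.34 to -0.25 for HMGCS1, from -0.35 to -0.24 for INSIG1 and from -0.44 to -0.24 for ELOVL6. Genes of the mevalonate and lanosterol steps thus moved in opposite directions, with MVD, IDI1, MSMO1 and DHCR7 higher and HMGCS1, LBR and NSDHL lower.

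SREBF1 rose in the libraries with the SLC25A12-WT label (0.27 ± 0.05, adjusted p = 5.4e-06), in WT cells (0.23 ± 0.05, adjusted p = 9.7e-05) and in F137S cells (0.16 ± 0.05, adjusted p = 0.011). The F137S call was lost without F137S vehicle replicate 1 or antimycin replicate 3 (0.12 to 0.13). It did not pass in KO and dMTS-DELE1 cells (-0.0025 ± 0.05 in KO cells and 0.01 ± 0.05 in dMTS-DELE1 cells, adjusted p = 0.975 and 0.93). SC5D rose in WT cells (0.13) and the libraries with the SLC25A12-WT label (0.10), and HSD17B7 fell in both (-0.24 and -0.20). The difference of responses between KO and WT cells was called for SC5D and not for HSD17B7. Opposite calls in different lines were made for ACAT2 and EBP. ACAT2 fell in dMTS-DELE1 cells (-0.08) and rose in the other lines (0.10 to 0.14). EBP fell in dMTS-DELE1 cells (-0.09) and rose in KO cells (0.08). The difference of responses between dMTS-DELE1 and F137S cells was called for ACAT2 and not for EBP, and that between dMTS-DELE1 and KO cells was not tested. The falls of ACAT2 and EBP were lost in 5 and 4 of 8 fits that left out 1 library, and the rise of EBP in 4 of 8. MVK, PMVK, FDPS, LSS, CYP51A1 and ACACA were called in no line.

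**Figure D4:**
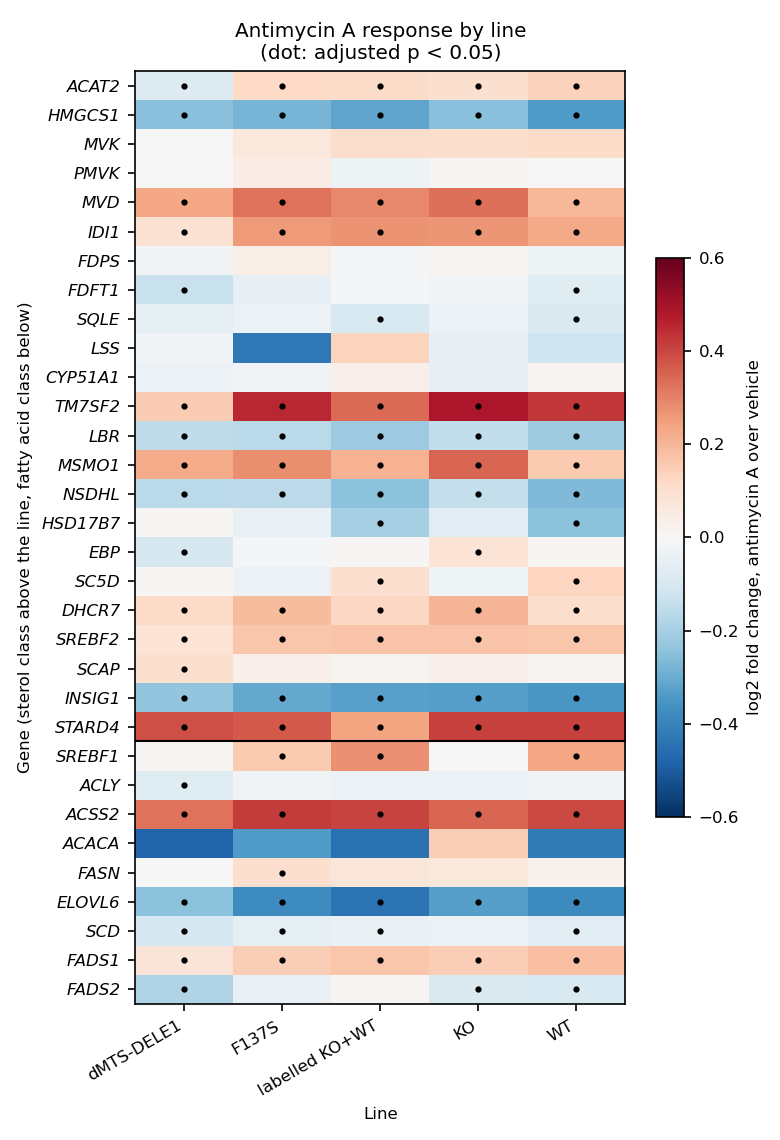
Log2 fold change of antimycin A over vehicle (colour, red for higher and blue for lower) for the 32 genes (rows) in each line (columns), with a dot for adjusted p < 0.05. STARD4 and ACSS2 are red and HMGCS1, INSIG1 and ELOVL6 blue in all 5 lines, while strongly coloured cells of ACACA and LSS carry no dot.

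The values of LSS and ACACA varied between libraries of a group far more than those of the other genes. LSS had 41.7, 31.4, 31.1 and 50.5 CPM in dMTS-DELE1 cells under antimycin A and 46.6, 30.1, 50.4 and 29.9 CPM in vehicle. ACACA had 46.9, 20.1, 29.3 and 18.8 CPM in F137S cells under antimycin A and 40.8, 25.1, 44.8 and 35.0 CPM in vehicle. The coefficient of variation within groups ran from 4.59% to 27.5% for LSS and from 6.09% to 47.2% for ACACA, and for the other 30 genes it was at most 12.3%. Counts of these genes were 537 to 1701 per library, so counting error is small beside that spread. ACACA was called in a single comparison, lower in the libraries with the SLC25A12-WT label than in KO cells under antimycin A (-0.61). That call was lost without any 1 of the 4 KO libraries or without replicate 1 or 2 of the labelled line (-0.64 to -0.41), and with the replicate number as a block (adjusted p = 0.050).

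In GENCODE v29, exons of 11 of the 32 genes overlap exons of another tested gene, and since the strandedness of counting is not given, reads there cannot be assigned with certainty. The largest such overlap is in ACAT2, where 26.5% of exon bases lie under SOD2 and 33.9% under SOD2-OT1 on the other strand. FDPS shares 18.6% of its exon bases with RUSC1-AS1, IDI1 shares 14.8% with IDI2-AS1, and SREBF1 shares 6.92% with RAI1. CYP51A1 shares 79.4% with AC000120.2 on its own strand, which is not among the tested genes. INSIG1, SCD, DHCR7, SC5D, FASN, ELOVL6 and HMGCS1 share none with a tested gene.

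Related genes outside the 32 were read from 3 lists. In dMTS-DELE1 against F137S cells in vehicle, where 17.7% of all tested genes were higher and 24.1% lower, 2 of 15 other sterol genes were higher (13.3%) and 7 lower (46.7%), among them TMEM97 (-0.24 ± 0.03). Of 22 tested other fatty acid genes 3 were higher (13.6%) and 8 lower (36.4%), led by the citrate carrier SLC25A1 (-0.36 ± 0.03) and PNPLA3 (-0.31 ± 0.06). Of 7 genes of the liver X receptors and cholesterol efflux, 2 were higher and 1 lower, and the cholesterol exporter ABCA1 was 0.74 ± 0.21 higher. Under antimycin A, where 25.5% of all tested genes were higher and 28.8% lower, 3 were higher and 9 lower in the other sterol list, 4 and 8 in the other fatty acid list and 1 and 3 in the efflux list. In KO against WT cells in vehicle, 22.7% of all tested genes were higher and 25.6% lower. The counts higher and lower were 3 and 3 in the other sterol list, 4 and 9 in the other fatty acid list and 1 and 3 in the efflux list. The other fatty acid list included the enoyl-CoA reductase TECR at -0.46 ± 0.04 and ACSL4 at -0.40 ± 0.03. Log2 fold changes in the other sterol list ran from -3.28 to 0.23, with a median of 0.02. Antimycin A in WT cells, where 25.5% of all tested genes rose and 26.4% fell, gave 5 higher and 0 lower of 7 in the efflux list, with the sterol exporter ABCG1 at 0.94 ± 0.26 and SMPDL3A at 0.81 ± 0.09. The efflux list counts were 1 and 0 in dMTS-DELE1 cells, where 17.6% of all tested genes rose and 17.3% fell, and 4 and 0 in F137S cells, where the shares were 26.3% and 24.9%. They were 5 and 0 both in the libraries with the SLC25A12-WT label (25.9% and 26.4%) and in KO cells (26.4% and 24.7%). Of the other sterol list 7 rose and 4 fell in WT cells, including FAXDC2 (0.89 ± 0.16) and the lysosomal cholesterol carrier NPC1 (0.40 ± 0.04).

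The level of each class in a library was taken as the mean log2 CPM of its genes and is given as a description. In vehicle the sterol class averaged 6.35 ± 0.02 in dMTS-DELE1 cells, 6.57 ± 0.03 in F137S cells, 6.55 ± 0.01 in the libraries with the SLC25A12-WT label, 6.59 ± 0.02 in KO cells and 6.56 ± 0.02 in WT cells (SD, n = 4 each). The fatty acid class averaged 6.72 ± 0.01, 6.91 ± 0.06, 7.10 ± 0.05, 6.98 ± 0.02 and 7.12 ± 0.04 in the same order. The dMTS-DELE1 minus F137S difference was -0.22 in vehicle and -0.25 under antimycin A for the sterol class, and -0.19 and -0.26 for the fatty acid class, whose spread in F137S cells carries that of ACACA. KO minus WT was 0.03 and 0.07 for the sterol class and -0.14 and -0.10 for the fatty acid class, in vehicle and under antimycin A.

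**Figure D5:**
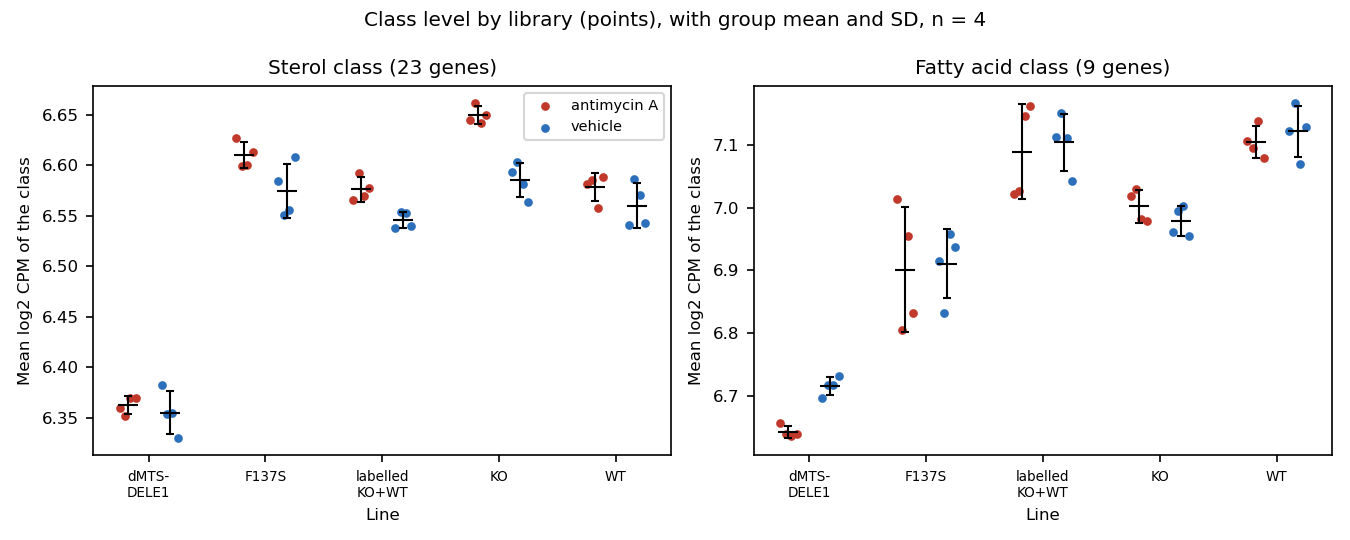
Mean log2 CPM of the 23 sterol class genes (left) and the 9 fatty acid class genes (right) in each library (points), antimycin A (red) left of vehicle (blue) in each line, with group means and SD (black, n = 4). dMTS-DELE1 libraries are the lowest of each panel, with sterol class levels in vehicle of 6.33 to 6.38 against 6.55 to 6.61 in F137S cells.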

How the data were processed

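The 32 genes and all related lists were chosen with earlier results of these data known. The authors deposited raw, unscaled counts per gene symbol for 40 libraries. The submitters' processing notes name HISAT2 2.1.0, featureCounts 2.0.6 and hg38. Their settings, annotation and strandedness were not given in the sources used here. Each count column was tied to its sample by the library name in the label.

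Counts were filtered with filterByExpr, which kept 16739 of 28278 symbols and all 32 genes, scaled by TMM (factors 0.972 to 1.02) and fitted by the robust quasi-likelihood model of edgeR 4.0.16 in R 4.3.3, with 1 coefficient per group over all 40 libraries, for 18 contrasts. P-values were adjusted by Benjamini-Hochberg over every tested gene, with calls at 0.05. CPM use the library's total over tested genes times its TMM factor, and log2 CPM add a prior count of 2. The common biological coefficient of variation was 0.0509. The tests are unpaired. Libraries that share a replicate number had residual correlations between -0.0588 and 0.051 in 180 pairs of libraries. In genes with low counts, libraries of a group differed by 1.9 to 2.28 times the counting variance, and none was treated as a duplicate. If read pairs were counted as 2 reads, sequencing 1 sample again could give ratios of that size. This measure therefore cannot tell such repeats from separate samples.

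All 32 genes are named. By the naming rule, values of every library belong to the 4 regulators and to up to 3 genes per class and comparison with the largest called changes. They are printed for dMTS-DELE1 against F137S cells, KO against WT cells and antimycin A in WT cells. The other comparisons give differences. Alternatives were DESeq2 size factors, the DESeq2 1.42.0 Wald test, no filter, the replicate number as a block, only the groups compared, counts halved (in case read pairs were counted as 2 reads), a fit without the labelled libraries or without the robust option, a prior count of 0.5, other class assignments, and each library left out in turn. Medians of tested genes within 5 Mb (16065 symbols with a RefSeq position) and exon overlaps were added after the results were seen. The fit was tested on simulated data.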

Additional observations from a re-analysis of the deposited data

Results flagged for a closer look

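Single libraries far from the other 3 of their group were found in 11 of 340 groups of 4 CPM values (3.24%), where chance gives about 1 in 20. HSD17B7 had 28.9 CPM in F137S vehicle replicate 1, against 25.7 to 26.1 in the others, and 30.9 CPM in WT vehicle replicate 1, against 28.0 to 28.2. INSIG1 had 249 CPM in F137S vehicle replicate 4, against 236 to 238, and STARD4 had 48.4 CPM in KO vehicle replicate 3, against 57.6 to 58.9. In the libraries with the SLC25A12-WT label under antimycin A, FDFT1 had 152 CPM in replicate 4 (others 157 to 158), FASN 1041 CPM in replicate 4 (others 1085 to 1091) and SCD 1042 CPM in replicate 1 (others 1082 to 1090). LSS had 28.6 CPM in replicate 3 of the same label in vehicle (others 34.0 to 35.1). FADS2 had 49.3 CPM in dMTS-DELE1 antimycin replicate 2 (others 45.5 to 45.6), SC5D 221 CPM in dMTS-DELE1 vehicle replicate 2 (others 226) and CYP51A1 211 CPM in KO vehicle replicate 2 (others 215).

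The antimycin response differed between lines by the test of the difference for 5 genes. Between dMTS-DELE1 and F137S cells the log2 difference of responses was -0.30 for TM7SF2, -0.20 for ACAT2 and -0.16 for IDI1. Between KO and WT cells it was 0.19 for MSMO1, lost in 3 of 16 fits that left out 1 library, and -0.15 for SC5D.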

How the results depend on the processing

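Of 576 gene and contrast values, none changed sign past the threshold under any alternative. The call stayed the same for 569 with DESeq2 size factors, 564 with no filter, 562 with the DESeq2 Wald test, 555 with the compared groups alone, 573 with counts halved, 572 without the robust option, and 406 of 416 without the labelled libraries. With the replicate number as a block 574 stayed the same, and ACAT2 in dMTS-DELE1 cells under antimycin A against vehicle (-0.08, adjusted p = 0.053) and ACACA in the labelled libraries against KO cells under antimycin A (-0.61, adjusted p = 0.050) lost their calls. Of 239 calls, 213 held on leaving out any 1 library. Counts of called fatty acid class genes moved to 7 from 4 for antimycin A in KO cells with the compared groups alone, to 1 from 0 for the difference of responses between KO and WT cells with DESeq2, and to 1 from 0 for that between dMTS-DELE1 and F137S cells with DESeq2 or without the robust option. Leaving out 1 library gave 1 to 2 sterol and 0 to 1 fatty acid class genes for the difference between KO and WT cells, and 3 to 6 and 0 to 4 for that between dMTS-DELE1 and F137S cells.

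Class levels, as log2 differences, moved by more than the library spread as follows. Without ACLY and ACSS2 the fatty acid response to antimycin A was -0.131 (with them -0.074) in dMTS-DELE1 cells, -0.014 (0.023) in KO cells and -0.075 (-0.017) in WT cells, and KO minus WT under antimycin A was -0.065 (-0.102). With SREBF1 in the sterol class, KO minus WT was 0.003 (0.025) for the sterol and -0.097 (-0.143) for the fatty acid class in vehicle, 0.037 (0.071) and -0.023 (-0.102) under antimycin A, and its difference of responses was 0.074 (0.040) for the fatty acid class. For labelled minus KO the values were -0.015 (-0.039) and 0.073 (0.125) in vehicle, and -0.036 (-0.073) and -0.004 (0.087) under antimycin A. With DESeq2 size factors the sterol dMTS-DELE1 minus F137S difference under antimycin A was -0.234 (-0.248). The causes of these moves were not tested.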
